A study of Mus musculus with 12 samples.

Results

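The 7 genes described here are Hoxa5, Hoxa6, Hoxa7, Hoxa9, Hoxa10, Meis1 and Pbx3, the transcription factor genes at the core of the programme that the MLL-AF9 fusion maintains. They were read from the deposited log2 RMA table, one probe set a gene, and are 7 of 22180 genes that had a probe set annotated to exactly 1 symbol. All 7 were measured, and all 7 passed the filter on low values that left 19152 genes to be tested. Each had 1 such probe set.

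The 12 arrays came from 6 mouse leukaemias carrying the MLL-AF9 oncogene, and cells of each were sorted by FACS into c-kit-positive and c-kit-negative fractions. Leukaemias 81, 83 and 85 are labelled Dnmt3b-knockin and leukaemias 73, 75 and 79 are labelled WT, so that 3 arrays stand in each of 4 groups. MLL-AF9 is carried by both genotypes, and no group without it was analysed here. The series addresses overexpression of Dnmt3b, a de novo DNA methyltransferase. The labels give neither the allele nor the promoter that drives it, nor the strain or age of the mice, nor whether the leukaemia numbers stand for separate mice, so that p-values measure the spread between these samples. Titles name bone marrow and the source field names spleen, and the tissue was not settled.

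MLL-AF9 joins the DNA-binding part of the histone methyltransferase MLL to AF9, a partner that brings in elongation and histone-modifying factors. The fusion keeps the late-acting genes of the Hoxa cluster and Meis1 switched on in myeloid progenitors, where they normally fall silent as cells mature. HOXA proteins bind DNA together with the three-amino-acid-loop-extension (TALE) homeodomain proteins MEIS1 and PBX3, and HOXA9 with MEIS1 is a known driver of acute myeloid leukaemia in mice. The protein c-kit, the stem cell factor receptor, marks the immature cells of such a leukaemia.

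The 5 Hoxa genes lie side by side on the minus strand of chromosome 6 in GRCm38.p6, the build of the RefSeq table used for positions. Hoxa5 spans chr6:52201754-52204587, Hoxa6 chr6:52204858-52208672 and Hoxa7 chr6:52215623-52218573. Hoxa9 spans chr6:52223097-52227370 and Hoxa10 chr6:52231197-52240854. Meis1 spans chr11:18880428-19019651 and Pbx3 chr2:34171457-34372045.

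The 250 bases before the start of Hoxa5, Hoxa6, Hoxa7 and Hoxa9 are shown because these 4 genes varied together over the arrays and because Dnmt3b methylates cytosines that stand before a guanine. They are RefSeq sequences of GRCm38.p6, minus strand, written in the direction of transcription. Capitals mark CG dinucleotides. The windows are chr6:52204588-52204837 for Hoxa5, chr6:52208673-52208922 for Hoxa6, chr6:52218574-52218823 for Hoxa7 and chr6:52227371-52227620 for Hoxa9.
Hoxa5: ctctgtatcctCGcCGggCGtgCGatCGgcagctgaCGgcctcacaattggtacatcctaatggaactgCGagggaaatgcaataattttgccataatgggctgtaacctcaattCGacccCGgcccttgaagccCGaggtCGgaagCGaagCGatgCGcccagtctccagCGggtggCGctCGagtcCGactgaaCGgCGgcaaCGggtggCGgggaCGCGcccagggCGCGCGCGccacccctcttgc
Hoxa6: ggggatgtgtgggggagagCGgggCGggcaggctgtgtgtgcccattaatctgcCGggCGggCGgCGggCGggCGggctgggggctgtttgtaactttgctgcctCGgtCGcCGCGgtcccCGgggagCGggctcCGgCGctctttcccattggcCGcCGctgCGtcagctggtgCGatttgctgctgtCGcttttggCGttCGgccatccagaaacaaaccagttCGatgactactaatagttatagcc
Hoxa7: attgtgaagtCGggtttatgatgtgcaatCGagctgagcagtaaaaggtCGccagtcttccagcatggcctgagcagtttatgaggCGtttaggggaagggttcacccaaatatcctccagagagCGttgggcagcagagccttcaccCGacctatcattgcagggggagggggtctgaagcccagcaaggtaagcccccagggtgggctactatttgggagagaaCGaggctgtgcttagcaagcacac
Hoxa9: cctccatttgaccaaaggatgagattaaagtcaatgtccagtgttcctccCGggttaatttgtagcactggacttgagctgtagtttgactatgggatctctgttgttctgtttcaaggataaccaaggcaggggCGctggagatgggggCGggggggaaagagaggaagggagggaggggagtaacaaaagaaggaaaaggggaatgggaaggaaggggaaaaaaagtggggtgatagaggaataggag

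The windows differed in CG content. That of Hoxa5 held 28 CG dinucleotides and that of Hoxa6 held 24, against 7 for Hoxa7 and 3 for Hoxa9. Over 32851 such windows the median was 6, with quartiles of 2 and 16. Meis1 had 13 in its window, and the 2 windows listed for Hoxa10 had 7 and 20. The letters TGACAG, a core read by MEIS proteins, and TGATTNAT, a composite read by PBX and HOX proteins, were searched on both strands. Neither occurred in the windows of the 6 members that have one, and they occurred in 15.9% and 2.82% of all windows. Methylation was not measured on these arrays.

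Array medians lay between 5.56 and 5.71. The checks of the labels gave a clear sort and no higher Dnmt3b RNA. Kit, which encodes c-kit, was 1.40 ± 0.09 (SE) log2 units higher in c-kit-positive than in c-kit-negative arrays (limma, adjusted p = 7.78e-06), with no overlap between the fractions. Dnmt3b was 6.33 to 6.49 in knock-in and 6.33 to 6.66 in wild-type c-kit-positive arrays, and 6.16 to 6.64 in knock-in and 6.10 to 6.38 in wild-type c-kit-negative arrays, with differences of -0.07 and 0.14 (limma adjusted p = 0.910 and 0.948). Whether this probe set reports the knock-in allele was not tested, so "knock-in" below names the label. Leukaemia 81 stood apart in Xist, the RNA that coats the inactive X chromosome, at 6.30 and 6.27 against 9.83 to 11.7 on the other 10 arrays, and the genotype difference of each gene over both fractions is also given without it.

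Hoxa9 was the member with the largest difference between the genotypes. It had log2 values of 8.14, 7.74 and 7.73 in the knock-in c-kit-positive arrays of leukaemias 81, 83 and 85, against 8.35, 8.79 and 8.43 in the wild-type arrays of leukaemias 73, 75 and 79. All 3 knock-in values lay below all 3 wild-type values, and the gap between leukaemia 81 and leukaemia 73 was the narrowest. In c-kit-negative cells Hoxa9 had 7.89, 7.20 and 7.12 in knock-in leukaemias, against 7.53, 8.25 and 8.03 in wild-type ones. There the groups overlapped, because leukaemia 81 lay above leukaemia 73. The difference in c-kit-positive cells was -0.65 ± 0.22 (SE, n = 3 arrays each), or 1.57-fold lower in knock-in leukaemias, with a 95% confidence interval from -1.14 to -0.17. It did not pass the threshold over all genes in limma (adjusted p = 0.325).

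**Figure D1:**
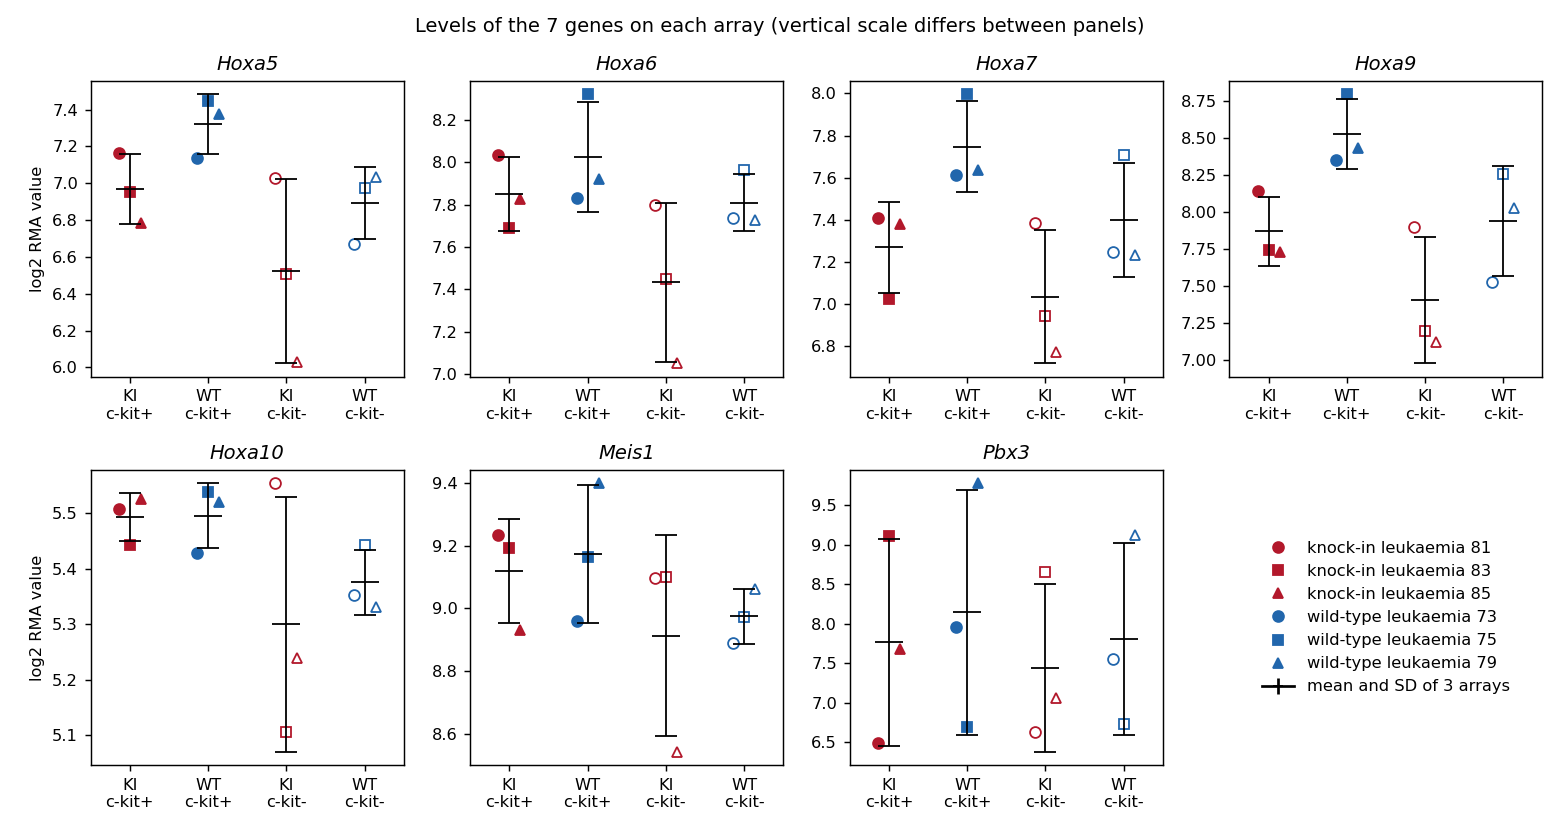
Log2 RMA values of the 7 genes on the 12 arrays, a panel a gene with its own vertical scale, in the order knock-in and wild-type c-kit-positive, then knock-in and wild-type c-kit-negative. Symbols are leukaemias, bars give the mean and SD of 3 arrays, and Hoxa7 and Hoxa9 do not overlap between the genotypes in c-kit-positive cells.

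The difference in Hoxa9 was -0.53 ± 0.22 in c-kit-negative cells (adjusted p = 0.788). Over the means of both fractions it was -0.59 ± 0.19 (SE, n = 3 leukaemias each, limma adjusted p = 0.431). The exact permutation test gave p = 0.1 in c-kit-positive cells, the smallest that 3 against 3 can reach, and p = 0.2 over both fractions. Without leukaemia 81 the difference over both fractions was -0.78, with an adjusted p of 0.0664, and without leukaemia 75 it was -0.45.

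Hoxa7, which neighbours Hoxa9 in the cluster, showed the same order. It had 7.41, 7.02 and 7.38 in knock-in c-kit-positive cells, against 7.61, 7.995 and 7.64 in wild-type ones. The groups did not overlap, and leukaemia 83 was the lowest and leukaemia 75 the highest. In c-kit-negative cells the values were 7.39, 6.95 and 6.77 in knock-in leukaemias, against 7.25, 7.71 and 7.23 in wild-type ones, where leukaemia 81 again lay above the lower wild-type leukaemias. The difference was -0.48 ± 0.18 in c-kit-positive cells (limma adjusted p = 0.397) and -0.42 ± 0.15 over both fractions (adjusted p = 0.484), and over both fractions it was -0.54 without leukaemia 81 (adjusted p = 0.111) and -0.28 without leukaemia 75. The means of both fractions did not overlap, with an exact permutation p of 0.1, the smallest possible. Another probe set, annotated to both Mira, a noncoding RNA of the cluster, and Hoxa7, had 7.33, 7.18 and 7.32 in knock-in c-kit-positive cells, against 7.59, 7.95 and 7.54 in wild-type ones. These groups also stood apart. In c-kit-negative cells they overlapped, with 7.46, 7.01 and 6.97 in knock-in and 7.30, 7.64 and 7.45 in wild-type leukaemias. Signals of the 2 genes cannot be told apart in that probe set.

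Hoxa5, at the other end of this group of neighbours, had 7.16, 6.95 and 6.79 in knock-in c-kit-positive cells, against 7.14, 7.45 and 7.38 in wild-type ones. Leukaemia 81 lay just above leukaemia 73, so that the groups overlapped by that pair. In c-kit-negative cells it had 7.03, 6.51 and 6.03 in knock-in leukaemias, against 6.67, 6.97 and 7.03 in wild-type ones, and leukaemia 85 was the lowest of all arrays. Its difference was -0.36 ± 0.17 over both fractions (limma adjusted p = 0.636), and it was -0.54 without leukaemia 81 and -0.19 without leukaemia 85. In c-kit-negative cells the difference was -0.37, and -0.62 without leukaemia 81.

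Hoxa6 had 8.03, 7.69 and 7.83 in knock-in c-kit-positive cells, against 7.83, 8.32 and 7.92 in wild-type ones. In c-kit-negative cells it had 7.80, 7.45 and 7.05 in knock-in leukaemias, against 7.74, 7.96 and 7.73 in wild-type ones. The groups overlapped in both fractions, with leukaemia 75 highest in each and the lowest value in leukaemia 83 in c-kit-positive and leukaemia 85 in c-kit-negative cells. The difference over both fractions was -0.28 ± 0.15 (limma adjusted p = 0.701), and it was -0.41 without leukaemia 81 and -0.16 without leukaemia 75.

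Hoxa10, a posterior Hoxa gene that drives myeloid progenitor growth when overexpressed, had the narrowest range of the 7 genes. It had 5.51, 5.44 and 5.53 in knock-in c-kit-positive cells, against 5.43, 5.54 and 5.52 in wild-type ones. In c-kit-negative cells it had 5.55, 5.11 and 5.24 in knock-in leukaemias, against 5.35, 5.44 and 5.33 in wild-type ones. The groups overlapped in both fractions. The difference over both fractions was -0.04, with a 95% confidence interval from -0.25 to 0.17, and it was -0.11 without leukaemia 81. All of its values lay below the lowest array median of 5.56, and a stricter filter at the median of the table would remove it. Whether its signal stood above background was not tested.

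Meis1, the cofactor that speeds leukaemia when added to HOXA9, had 9.24, 9.19 and 8.93 in knock-in c-kit-positive cells, against 8.96, 9.16 and 9.40 in wild-type ones. In c-kit-negative cells it had 9.10, 9.10 and 8.54 in knock-in leukaemias, against 8.89, 8.97 and 9.06 in wild-type ones. Knock-in arrays of leukaemias 81 and 83 lay among or above the wild-type arrays, and only leukaemia 85 lay below all of them in each fraction. The difference over both fractions was -0.06, with a 95% confidence interval from -0.37 to 0.25 (limma adjusted p = 0.950). It was -0.13 without leukaemia 81 and turned to 0.08 without leukaemia 85.

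Pbx3, whose protein binds beside HOXA proteins, had 6.50, 9.12 and 7.69 in knock-in c-kit-positive cells, against 7.96, 6.70 and 9.78 in wild-type ones. In c-kit-negative cells it had 6.63, 8.65 and 7.06 in knock-in leukaemias, against 7.56, 6.73 and 9.12 in wild-type ones. Both genotypes held a leukaemia at a high level and another at a low one. The difference over both fractions was -0.37, with an interval from -2.02 to 1.29. It was 0.15 without leukaemia 81 and 0.37 without leukaemia 79.

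In none of the 3 genotype comparisons did a member pass the threshold of an adjusted p of 0.05 in limma. The shares of all genes that passed in either direction were 0.141% in c-kit-positive cells, 0.0627% in c-kit-negative cells and 0.0261% over both fractions. At an unadjusted p under 0.05, Hoxa7 and Hoxa9 were below it in c-kit-positive cells and over both fractions, and Hoxa9 alone in c-kit-negative cells, against 9.89%, 8.37% and 6.10% of all genes. Groups did not overlap for 2 of 7 members in c-kit-positive cells, both lower in knock-in, where 9.88% of all genes were lower without overlap. No member stood clear in c-kit-negative cells (4.66% of all genes), and 1 of 7 did over both fractions (7.45%). All 7 differences were below 0 in each comparison, with medians of -0.35, -0.36 and -0.36, while the medians of all genes were 0.01, -0.00 and 0.01. Of all 19152 genes, 8937, 9691 and 8896 were below 0 in the same comparisons. The 7 are not separate observations, since Hoxa5, Hoxa6, Hoxa7 and Hoxa9 varied together (Pearson r of 0.84 to 0.93). For Hoxa10 the difference in c-kit-positive cells was only -0.003. The replicate block, which in the genotype comparisons treats both arrays of a leukaemia as correlated, left 0 of 7 members past the threshold (0.120%, 0.0627% and 0.178% of all genes). With it Hoxa9 had a limma adjusted p of 0.198 over both fractions.

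Markers of late neutrophils moved with the genotype label. The mean log2 value of 12 such markers was 8.73 to 8.998 in knock-in and 7.54 to 8.19 in wild-type c-kit-positive arrays, and 10.01 to 10.3 in knock-in and 8.65 to 9.47 in wild-type c-kit-negative arrays. Of the 12, 3 rose in c-kit-positive cells, namely Ltf, Ly6g and S100a8, and 3 rose in c-kit-negative cells, namely Ltf, Ly6g and Cxcr2. Among all 19152 genes, 11 passed as higher in each of these fractions. Ltf, the gene for lactoferrin of secondary granules, was 2.65 ± 0.19 higher over both fractions (limma adjusted p = 0.00398), and Ly6g 2.35 ± 0.15 (adjusted p = 0.00272). Progenitor and primary granule markers averaged 9.39 to 10.1 in knock-in and 9.67 to 10.4 in wild-type c-kit-positive arrays, which overlapped. Other marker lists also stood apart between the genotypes, with 0 of their genes past the threshold. Among single genes, 9.88% in c-kit-positive and 4.66% in c-kit-negative cells were lower in knock-in without overlap. In c-kit-positive cells monocyte markers averaged 7.02 to 7.07 in knock-in and 7.09 to 7.41 in wild-type arrays. There 9 of 10 were lower in knock-in, as were 8937 of all 19152 genes. In the same cells the 3 tested megakaryocyte markers averaged 6.07 to 6.22 in knock-in and 5.85 to 5.99 in wild-type arrays. Their single differences were -0.008, 0.04 and 0.73, so that 1 gene made most of this gap. Stromal markers averaged 5.534 to 5.80 in knock-in and 5.45 to 5.529 in wild-type c-kit-positive arrays. In c-kit-negative cells B cell markers averaged 5.96 to 6.55 in knock-in and 5.82 to 5.89 in wild-type arrays, and T and NK cell markers 5.47 to 5.65 in knock-in and 5.30 to 5.40 in wild-type arrays. The stromal and the T and NK cell averages lay around or below the array medians of 5.56 to 5.71. The lists that did not stand apart were the erythroid one in both fractions, B cell and T and NK cell markers in c-kit-positive cells, and monocyte, megakaryocyte and stromal markers in c-kit-negative cells. In sorted bulk cells, fewer cells of a type and less RNA per cell cannot be told apart, and the part of these marker differences in the Hoxa values was not tested.

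The spread of the values over all probe sets also differed between arrays, with an SD of 1.504 on the c-kit-negative array of leukaemia 85 and up to 1.61 elsewhere. That array was the lowest of all 12 for Hoxa5, Hoxa6, Hoxa7, Hoxa9 and Meis1. In leukaemias 73, 75, 79, 83 and 85 the SD was larger on the c-kit-positive than on the c-kit-negative array. In leukaemia 81 it was 1.601 on the c-kit-positive and 1.609 on the c-kit-negative array. The part of this spread in the c-kit differences was not tested. After quantile normalization was repeated, the difference in Hoxa9 over both fractions was -0.57 (adjusted p = 0.311) and that in Hoxa7 -0.40 (adjusted p = 0.391).

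The c-kit comparison set both fractions of the same leukaemia against each other. Hoxa9 was higher in the c-kit-positive fraction of all 6 leukaemias, by 0.24, 0.55 and 0.61 in leukaemias 81, 83 and 85, and by 0.82, 0.54 and 0.40 in leukaemias 73, 75 and 79. The mean difference was 0.53 ± 0.20 (SD, n = 6 leukaemias), or 1.44-fold. With the replicate block the limma estimate was 0.53 ± 0.08 (SE), with a 95% confidence interval from 0.35 to 0.70 and an adjusted p of 0.000711. Without the block, which leaves the spread between leukaemias in the error, the adjusted p was 0.0603, and 0.0185 when leukaemia 81 was left out.

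Hoxa5 was also higher in the c-kit-positive fraction of 6 of 6 leukaemias, by 0.14 in leukaemia 81 up to 0.76 in leukaemia 85. The mean difference was 0.44 ± 0.20 (SD, n = 6), with an adjusted p of 0.00288 with the replicate block and 0.0865 without it, and 0.0161 without the block and without leukaemia 81. Hoxa6 was higher by 0.09 in leukaemia 73 up to 0.77 in leukaemia 85, with a mean of 0.32 ± 0.24 and an adjusted p of 0.0202 with the block (0.156 without). Hoxa7 was higher by 0.02 in leukaemia 81 up to 0.61 in leukaemia 85, with a mean of 0.29 ± 0.22 and an adjusted p of 0.0275 with the block (0.193 without). The probe set annotated to both Mira and Hoxa7 was lower in c-kit-positive than in c-kit-negative cells of leukaemia 81 (7.33 against 7.46). In the other leukaemias it was higher, in leukaemia 79 at 7.54 against 7.45. Leukaemia 81 gave the smallest difference of the 6 for Hoxa5, Hoxa7 and Hoxa9, and leukaemia 85 the largest for Hoxa5, Hoxa6 and Hoxa7.

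**Figure D2:**
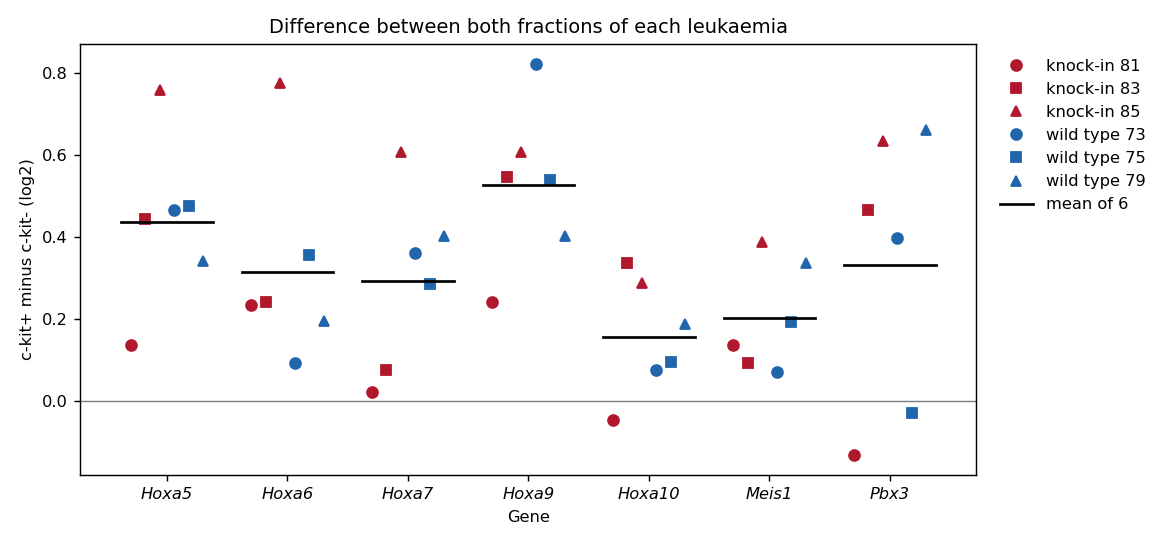
Difference between the c-kit-positive and the c-kit-negative array of each leukaemia (log2) for the 7 genes, with knock-in leukaemias left of wild-type ones and a line at the mean of 6. All 6 points of Hoxa5, Hoxa6, Hoxa7, Hoxa9 and Meis1 lie above 0, and leukaemia 81 lies below 0 for Hoxa10, as leukaemias 81 and 75 do for Pbx3.

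Meis1 was higher in the c-kit-positive fraction of 6 of 6 leukaemias, by 0.20 ± 0.13 (SD), and did not pass (adjusted p = 0.0641 with the replicate block). Hoxa10 was higher in 5 of 6, by 0.16 ± 0.14 (adjusted p = 0.151 with the block). Pbx3 was higher in 4 of 6, by 0.33 ± 0.34 (adjusted p = 0.0525 with the block), and lay between -0.13 in leukaemia 81 and 0.66 in leukaemia 79. The exact sign-flip permutation test over the 6 leukaemias gave p = 0.03125, the smallest it can give, for Hoxa5, Hoxa6, Hoxa7, Hoxa9 and Meis1. It gave 0.0625 for Hoxa10 and 0.125 for Pbx3, and these values are not adjusted over the 7 genes.

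Without the block 0 of 7 members passed the threshold, against 8.25% of all genes in either direction. At an unadjusted p under 0.05 stood 4 of 7, Hoxa5, Hoxa6, Hoxa7 and Hoxa9, and 23.4% of all genes. With it 4 of 7 passed, all higher in c-kit-positive cells, where 13.0% of all genes passed as higher and 19.6% in either direction. Of the genes past the threshold with the block, 2492 of 3758 were higher, and 3053 of 3921 were when arrays were first centred on their medians. The median difference of the 7 was 0.32, and that of all genes tested was -0.03. Which members passed depended on single leukaemias. Hoxa5 and Hoxa9 passed with the block when any 1 of the 6 leukaemias was left out. Hoxa6 did not pass without leukaemia 75 (adjusted p = 0.0855) or leukaemia 85 (0.0628), and Hoxa7 did not pass without leukaemia 73, 75, 79 or 85 (0.0641 to 0.0804). After repeated quantile normalization Hoxa7 had an adjusted p of 0.0595 with the block, and with arrays centred on their medians Meis1 (0.0333) and Pbx3 (0.0355) passed as well.

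Within each genotype the differences had the same sign. In knock-in leukaemias Hoxa9 was 0.47 ± 0.11 (SE) and Hoxa5 0.45 ± 0.12 higher in c-kit-positive cells with the block (adjusted p = 0.0225 and 0.0338). In wild-type leukaemias Hoxa9 was 0.59 ± 0.11 and Hoxa5 0.43 ± 0.12 higher (adjusted p = 0.00759 and 0.0364). These were the 2 of 7 members that passed in each genotype with the block, where 8.70% and 11.0% of all genes passed in either direction. Without the block 0 of 7 passed in either genotype (1.88% of all genes in knock-in and 0.768% in wild-type leukaemias). At an unadjusted p under 0.05 were Hoxa5 and Hoxa6 in knock-in leukaemias (12.6% of all genes) and Hoxa9 in wild-type ones (16.2%). The fractions did not overlap for Hoxa5 and Hoxa9 in wild-type leukaemias, where 14.5% of all genes were higher without overlap, and overlapped for all 7 members in knock-in leukaemias (7.24%).

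The test of whether the c-kit difference itself depended on genotype found no gene past the threshold in limma, with 427 genes at an unadjusted p under 0.05 (2.23%) and 1102 with the block. Without the block, the interaction was -0.12 for Hoxa9, with a 95% confidence interval from -0.81 to 0.56. It was 0.20 for Hoxa6, the largest of the 7 in size. Intervals of this fit ignore the pairing of both fractions, which leaves the spread between leukaemias in the error. An equal response in both genotypes is not shown by the absence of calls, since these intervals are wide.

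Put in order, the 4 group means ran the same way at both ends for all 7 genes. Knock-in c-kit-negative cells were lowest and wild-type c-kit-positive cells highest. This order follows from the signs of the genotype and c-kit differences given above and is not a separate result. The share of all genes in this order was not computed. For Hoxa10 the c-kit-positive means were nearly equal, at 5.493 in knock-in and 5.495 in wild-type cells. For Hoxa9 the means were 7.87 ± 0.23 in knock-in and 8.52 ± 0.24 in wild-type c-kit-positive cells, and 7.40 ± 0.43 in knock-in and 7.94 ± 0.37 in wild-type c-kit-negative cells (SD, n = 3 each). Its middle groups, knock-in c-kit-positive and wild-type c-kit-negative cells, differed by less than their SD. For Hoxa5 the middle groups were knock-in c-kit-positive at 6.97 ± 0.19 and wild-type c-kit-negative at 6.89 ± 0.19, which also differed by less than their SD.

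Markers of maturity differed between the fractions. Progenitor and primary granule markers averaged 9.39 to 10.4 over the 6 c-kit-positive arrays and 7.90 to 9.07 over the 6 c-kit-negative arrays, and 6 of 7 rose in c-kit-positive cells without the block. The list and the 6 include Kit, whose rise was set by the sort on c-kit. Cd34 did not rise, with a difference of -0.22. Mpo, the primary granule enzyme myeloperoxidase, was 2.85 ± 0.46 (SE) higher there (adjusted p = 0.00272). Late neutrophil markers averaged 7.54 to 8.998 in c-kit-positive and 8.65 to 10.3 in c-kit-negative arrays, with 7 of 12 lower. These ranges overlapped over all arrays and stood apart only within each genotype. Monocyte markers averaged 7.02 to 7.41 in c-kit-positive and 7.83 to 8.66 in c-kit-negative arrays, without overlap and with 7 of 10 lower. Over all 19152 genes, 1118 rose and 462 fell in c-kit-positive cells without the block. The part of the marker differences in the Hoxa values was not tested.

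The rest of the Hoxa cluster gave few measured genes. Of 9 other listed genes of the region 5 were tested, Hoxa2, Hoxa3, Hoxa4, Hoxa13 and Evx1, and 0 passed in any comparison, without the block, nor between the c-kit fractions with it. Hoxa4, next to Hoxa5 in the cluster, had 5.46, 5.57 and 5.75 in knock-in c-kit-positive cells, against 5.69, 6.08 and 6.01 in wild-type ones. The groups overlapped by leukaemias 85 and 73, and they did not overlap in c-kit-negative cells, where the difference was -0.27. Its difference over both fractions was -0.30 ± 0.10 (limma adjusted p = 0.456). Hoxa3 had 5.24, 5.26 and 5.34 in knock-in c-kit-positive cells, against 5.56, 5.52 and 5.62 in wild-type ones, which did not overlap, with a difference of -0.28 ± 0.11 (adjusted p = 0.415). In c-kit-negative cells its difference was -0.02. Hoxa2, Hoxa13 and Evx1 differed by 0.05 or less over both fractions.

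**Figure D3:**
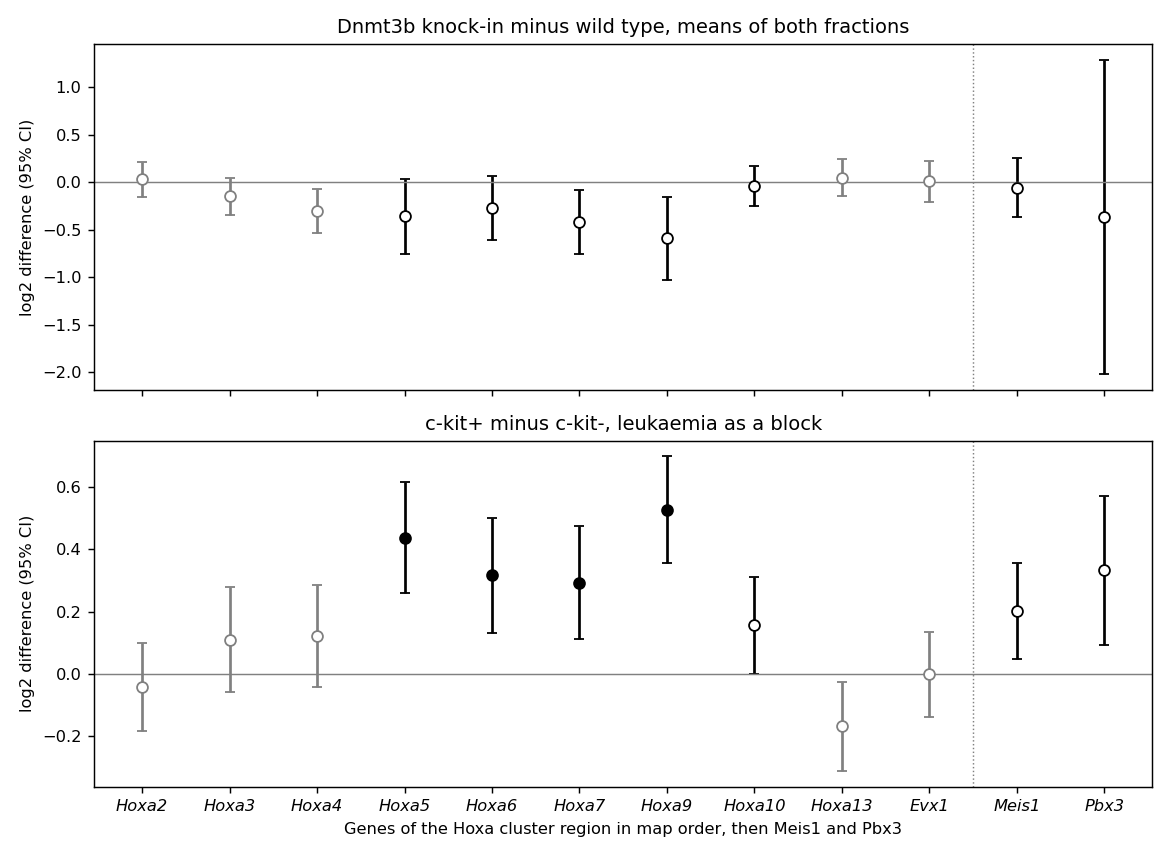
Log2 differences with 95% confidence intervals for the measured genes of the Hoxa region in map order and for Meis1 and Pbx3, with the 7 genes in black, the others in grey, and filled points past an adjusted p of 0.05. In the upper plot (knock-in minus wild type, means of both fractions) the lowest values are those of Hoxa4 to Hoxa9 and of Pbx3, and none is filled, and in the lower plot (c-kit-positive minus c-kit-negative, replicate block) Hoxa5, Hoxa6, Hoxa7 and Hoxa9 are filled.

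Of 28 listed Hoxb, Hoxc and Hoxd genes 22 were tested and 0 passed in any comparison without the block. Their median difference was 0.05 between the genotypes over both fractions and -0.06 between the c-kit fractions. Among 8 tested TALE homeobox genes other than Meis1 and Pbx3, Tgif1, a repressor of this family, passed without the block in 1 comparison. In knock-in leukaemias it had 6.06, 6.12 and 6.32 in c-kit-positive cells, against 6.83, 7.09 and 6.58 in c-kit-negative cells, without overlap (difference -0.67 ± 0.13, limma adjusted p = 0.0206). In wild-type leukaemias its difference was 0.06 (adjusted p = 0.860), and the interaction did not pass (adjusted p = 0.999951). With the replicate block it fell by 0.30 over all leukaemias (adjusted p = 0.0404).

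Of 19 tested genes for MLL complex members and partners of MLL fusions, 5 rose and 0 fell in the c-kit-positive fraction of all leukaemias. They were Dpy30 and Ash2l, subunits of the MLL core complex, at 0.45 and 0.41, Kat7, a histone acetyltransferase, at 0.43, and the fusion partners Aff1 and Mllt10 at 0.43 and 0.39 (adjusted p = 0.00985 to 0.0467). With the replicate block 9 of the 19 rose. Of all 19152 genes, 1118 rose without the block, and 13.0% rose with it. None passed between the genotypes. The median of the list was 0.22 between the fractions, against -0.03 for all genes.

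Of 16 genes reported downstream of Hoxa9 or Meis1, 3 rose and 2 fell in c-kit-positive cells, and 4 rose and 3 fell with the block. Of all 19152 genes, 1118 rose and 462 fell without the block. Myb, a transcription factor of immature blood cells, was 1.008 ± 0.149 higher (limma adjusted p = 0.00175). It had 10.7, 10.3 and 10.1 in c-kit-positive and 9.71, 9.26 and 8.84 in c-kit-negative knock-in cells, and 10.5, 10.6 and 10.6 in c-kit-positive and 9.35, 9.85 and 9.90 in c-kit-negative wild-type cells. The fractions of either genotype did not overlap. Cdk6, a cyclin-dependent kinase, and the growth regulator Myc rose by 0.56 each. Id2, an inhibitor of basic helix-loop-helix factors, fell by 1.09 and the kinase gene Camk2d fell by 0.40.

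None of the 16 passed between the genotypes, and they did not share a direction. In c-kit-positive cells 8 were higher and 8 lower in knock-in leukaemias, with differences from -1.47 to 1.18. In c-kit-negative cells 7 were higher and 9 lower. Over both fractions 9 were higher and 7 lower, with a median of 0.007. Flt3, a receptor tyrosine kinase gene, had the lowest difference of the 16. It had 6.02, 6.75 and 7.28 in knock-in c-kit-positive cells, against 7.95, 7.88 and 8.63 in wild-type ones. In c-kit-negative cells it had 6.65, 7.47 and 6.84 in knock-in leukaemias, against 9.16, 9.11 and 7.51 in wild-type ones. The groups did not overlap in either fraction, though leukaemias 83 and 79 were close in c-kit-negative cells. The difference over both fractions was -1.54 ± 0.21 (SE, n = 3 leukaemias each, limma adjusted p = 0.111).

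Leukaemias differed from each other more in Pbx3 than in any other member. The SD of the 6 leukaemia means was 1.17 log2 units, rank 10 among 19152 genes, against a median of 0.13 over all genes. It was 0.43 for Hoxa9, 0.31 for Hoxa5 and Hoxa7, 0.25 for Hoxa6, 0.18 for Meis1 and 0.09 for Hoxa10. The order of the leukaemias in Pbx3 was the same in both fractions, with leukaemia 79 highest, then 83, 73, 85, 75 and 81. Its highest and lowest arrays lay 3.28 log2 units apart. Leukaemia 75, the highest for Hoxa6, Hoxa7 and Hoxa9 in both fractions, was the next to lowest for Pbx3.

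**Figure D4:**
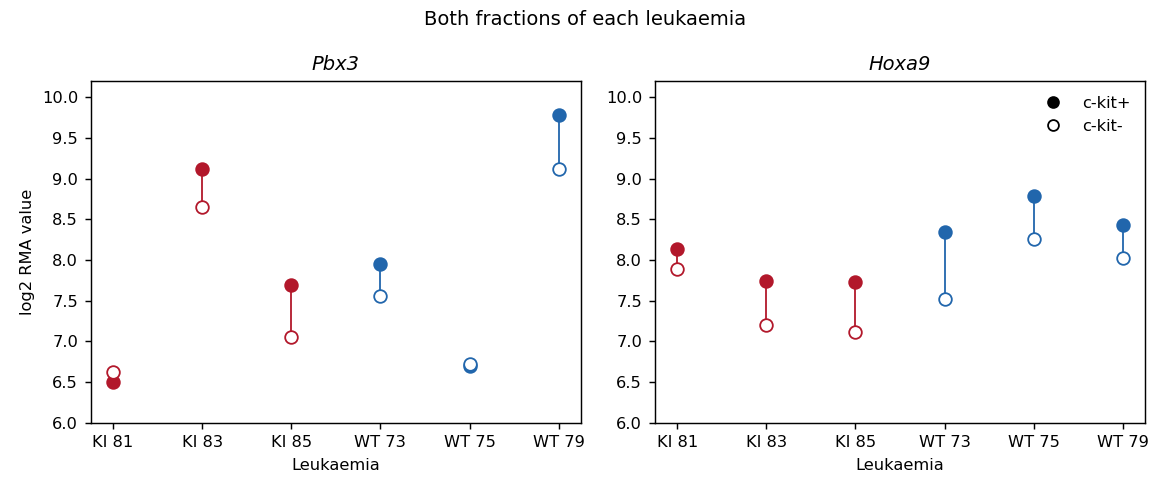
Log2 RMA values of Pbx3 and Hoxa9 in both fractions of each leukaemia, with filled points for c-kit-positive and open points for c-kit-negative cells, knock-in leukaemias (KI) left of wild-type ones (WT). Levels of different probe sets are not comparable, and the plot shows that the leukaemias follow the same order in both fractions for Pbx3.

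Over the 12 arrays, values of Hoxa5, Hoxa6, Hoxa7 and Hoxa9 varied together, with pairwise Pearson r of 0.84 to 0.93. The arrays share leukaemias in pairs and the fractions add to r, so no p is given. Hoxa10 had r of 0.71 to 0.75 with these 4 and Meis1 0.45 to 0.81. Pbx3 had r of -0.26 to 0.38 with the other 6.

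The genes whose values ran most like the mean of the 7 centred members over the 12 arrays were Rpl6l (r = 0.98), Rps28 (0.98), Nomo1 (0.96), Thrap3 (0.96) and Prpf19 (0.96). Those most opposed were Ambp (-0.95), Gm9871 (-0.95), Svopl (-0.95), 2610005L07Rik (-0.94) and Il18bp (-0.93). For Hoxa9 alone they were G6pc3 (0.98), Ndufs7 (0.96) and Mrpl39 (0.96), and for Meis1 Mark2 (0.97), Saal1 (0.97) and Prpf38b (0.96). These are the extremes of 19152 genes over 6 leukaemias and are given as a description.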

How the data were processed

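RNA from 12 sorted samples was hybridised to Affymetrix gene arrays. Per the submitters' processing notes, the deposited log2 values are RMA output of Affymetrix Expression Console (versions not given in the sources used here), so background, normalization and summary were set before deposit. The values were used as deposited. Of 41345 probe sets, 23521 had 1 annotated symbol, 1814 had several and 16010 were not listed, and 23328 matched RefSeq by Entrez identifier. The probe set with the highest mean was kept for each gene, and genes above log2 4.61, the 25th percentile, on at least 3 arrays were tested (19152 kept, 3028 removed).

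One limma fit (3.58.1, R 4.3.3, statmod 1.5.0) with 4 group means over 12 arrays gave all contrasts, two-sided. The genotype comparison over both fractions used leukaemia means. Benjamini-Hochberg adjustment ran over all tested genes, with a threshold of 0.05. Both fractions of a leukaemia share its number, and their deviations from the group means correlated at 0.279 to 0.601. The leukaemia number was therefore also used as a replicate block. Between the genotypes this was a random block with a shared correlation of 0.353 for all genes. Between the c-kit fractions and for the interaction each leukaemia had its own term, so that its arrays were paired. The c-kit contrast over all leukaemias was tested on simulated data with planted differences of 1 and 2 log2 units. Without the block 95% and 100% of these were recovered. Differences as small as those of the members, and the other contrasts, were not simulated. The members and gene lists were chosen with earlier results of these data known. Named genes were the 7 members, Dnmt3b and Kit, genes of the lists past the threshold (up to 6 a list and comparison) with up to 3 more by smallest p, and the genes most and least correlated with the members. Array numbers limit the precision.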

Additional observations from a re-analysis of the deposited data

How the results depend on the processing

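Counts of genes past the threshold moved more than those of the 7 members. With both arrays of each leukaemia left out in turn, the counts were 0 to 123 genes (27 in the full fit) between the genotypes in c-kit-positive cells, 3 to 83 (12) in c-kit-negative cells and 2 to 115 (5) over both fractions, each highest without leukaemia 81, and 0 members passed in all of these. For the c-kit fractions they were 58 to 367 genes (360) in knock-in leukaemias, 1 to 662 (147) in wild-type ones and 503 to 2087 (1580) over all, with 0 to 2 members, 2 of them without leukaemia 81. The interaction gave 0 to 1 genes, the 1 without leukaemia 85. The leukaemia number as a replicate block gave 34 genes between the genotypes over both fractions, where the block was random. For the c-kit fractions, fitted as pairs, it gave 1666 genes and 2 members in knock-in leukaemias. In wild-type ones it gave 2109 genes and 2 members, and over all 3758 genes and 4 members. The block changed no other call of a member.

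Alternatives added after seeing the data joined the block with another setting. With repeated quantile normalization they gave 1634 genes and 2 members in knock-in leukaemias, 1687 and 1 in wild-type ones and 3527 and 3 over all. With arrays centred on their medians they gave 1754 and 3, 2466 and 3, and 3921 and 6 in the same comparisons. With the block and leukaemias 73, 75, 79, 81, 83 and 85 left out in turn, 2748, 2634, 3086, 3894, 2719 and 2961 genes passed over all, with 2 to 5 members. Centring with the block raised the higher calls to 2059 of 2466 in wild-type leukaemias, against 1525 of 2109 without centring. Without the block, repeated quantile normalization gave 543 genes in knock-in leukaemias, and median centring gave 2 genes between the genotypes over both fractions and 69 between the fractions in wild-type leukaemias. The mean of all probe sets of a gene gave 17 genes between the genotypes in c-kit-positive cells, and eBayes with trend and robust gave 9 over both fractions. Arrays of the compared groups alone gave 64 and 1 genes between the genotypes in c-kit-positive and c-kit-negative cells, and 145 and 898 between the fractions in knock-in and wild-type leukaemias. The cause of these moves was not tested.

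The differences of single members that turned sign were those near 0 or with a wide interval. With leukaemias left out in turn, the genotype difference of Hoxa10 was -0.036 to 0.022 in c-kit-positive cells, -0.20 to 0.021 in c-kit-negative cells and -0.11 to 0.021 over both fractions. That of Meis1 was -0.16 to 0.058, -0.15 to 0.12 and -0.13 to 0.082 in the same comparisons, and that of Pbx3 was -1.10 to 0.44, -0.96 to 0.30 and -1.01 to 0.37. The interaction was -0.14 to 0.17 for Hoxa5, -0.084 to 0.075 for Meis1 and -0.21 to 0.21 for Pbx3. Repeated quantile normalization gave 0.0089 for Meis1 between the genotypes in c-kit-positive cells, and median centring gave interactions of -0.0049 for Hoxa5 and -0.016 for Meis1. A filter at the median of the table leaves no value for Hoxa10. The differences of Hoxa6, Hoxa7 and Hoxa9 kept their sign in the genotype and c-kit comparisons under all alternatives run. Those of Hoxa5 kept theirs in the same comparisons with leukaemias left out in turn. Between the genotypes over both fractions Hoxa5 ranged from -0.54 to -0.19.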

Other observations

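A look at Pbx3 was added after its spread over the leukaemias was seen. The genes most like it over the 12 arrays were Fnbp1l (Pearson r = 0.95), Adgrl4 (0.89) and Pced1b (0.88), and those most opposed were Satb1 (-0.88), Kin (-0.86) and B3galt4 (-0.86). Fnbp1l had 5.89, 7.62 and 6.88 in the c-kit-positive cells of knock-in leukaemias 81, 83 and 85, against 6.61, 5.47 and 8.74 in those of wild-type leukaemias 73, 75 and 79. As in Pbx3, leukaemias 79 and 83 were the highest. With Pbx3 left out of the mean of the members, the most similar genes were G6pc3 (0.98), Rrn3 (0.97) and Taf2 (0.97). The arrays are 2 a leukaemia, and these are the extremes of 19152 genes.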
